A study of Mus musculus with 24 samples.

Results

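To describe what insulin-like growth factor 1 (IGF1) did to the transcriptome of neutrophils, the 4 libraries of IGF1 treated cells were compared with the 4 libraries of untreated cells, which together are 8 of the 24 libraries of the series. The libraries were chosen by their treatment label. IGF1 was given at 10 ng/mL for 4 hours, and the untreated cells were cultured for the same 4 hours without it. All cells were neutrophils flushed from the femur and tibia marrow of C57Bl/6J mice and separated by density on Percoll, a step that enriches neutrophils and leaves some other marrow cells behind. The other groups, used here only beside the first comparison, received IL4 (20 ng/mL), insulin (10 or 100 ng/mL) or LPS with IFNγ (10 and 2 ng/mL), also for 4 hours and with 4 libraries each. The labels give 4 mice, and every library carries the number 6, 9, 10 or 11, once in each group. Which mouse, if any, a number stands for is not given. The main fit compares libraries within each number, so p-values set the mean change with IGF1 against its spread between the numbers. That spread may be in part technical.

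IGF1 acts through the IGF1 receptor, a tyrosine kinase that is closely related to the insulin receptor. Both receptors use insulin receptor substrate adaptors and signal through PI3K and AKT and through RAS and the MAP kinases. IL4 uses another route: its receptor chain IL4Rα pairs with the common γ chain or with IL13Rα1, JAK kinases phosphorylate STAT6, and STAT6 turns on a set of genes that is best known from alternatively activated macrophages. Neutrophils are short-lived granulocytes that engulf microbes, release granule proteins and oxidants, and carry receptors of both routes.

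Levels are given in RPKM, which is reads per kilobase of gene length, scaled to the mapped reads of the library. The libraries held 20577938 to 23191047 mapped reads with IGF1 and 21912630 to 26619260 mapped reads without treatment. Where 4 values of a group follow each other, they belong to the numbers 6, 9, 10 and 11 in that order. The 16 neutrophil markers summed to between 97839 and 125754 RPKM with IGF1 and between 108494 and 122737 RPKM in untreated cells, and 15 of them were not called, with Cxcr2 as the exception. The IGF1 library of number 10 stood apart from its group. In number 10 the change from untreated to IGF1 differed 2-fold or more from the mean change of the other numbers for 632 of the 9438 genes that averaged at least 1 RPKM in either group, against 68 to 276 genes in the others. In bulk libraries, fewer cells of a type and less RNA per cell cannot be told apart.

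The limma fit held the number as a block, and a gene was called where it changed at least 1.5-fold with an adjusted p below 0.05. Fold changes are on the scale log2(RPKM + 0.1), which understates the change of rare transcripts. Of 13093 genes tested, IGF1 changed 356 (2.72%), of which 314 were higher (2.4%) and 42 lower (0.321%). The median log2 fold change of all genes tested was 0.02. Every one of the 314 genes that rose was higher in IGF1 than in untreated cells in all 4 numbers, and for 260 of them the 4 IGF1 libraries all lay above the 4 untreated ones. Of the 314, 169 rose at least 2-fold and 34 at least 4-fold, and their median log2 fold change was 1.06. Within the numbers 6, 9, 10 and 11 that median was 1.03, 1.03, 1.13 and 1.03. The genes were called on these same values, so their agreement between numbers is largely built into the selection. The 42 genes that fell had a median of -0.91, 19 fell at least 2-fold, and the groups did not overlap for 20. The share of all genes tested whose groups lay apart is not given here, so these counts only describe the called genes. The count was 213 genes in the fit without the block, of which 7 were lower, and 235 genes without number 11 or 236 without number 9. Of the called genes, 12 that were higher and 7 that were lower averaged under 10 recovered reads a library. In a single simulated data set with a chosen spread, 10.3% of the calls of the fit with the block were false, above the 0.05 set for the adjusted p. The share in the real data was not measured.

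**Figure D1:**
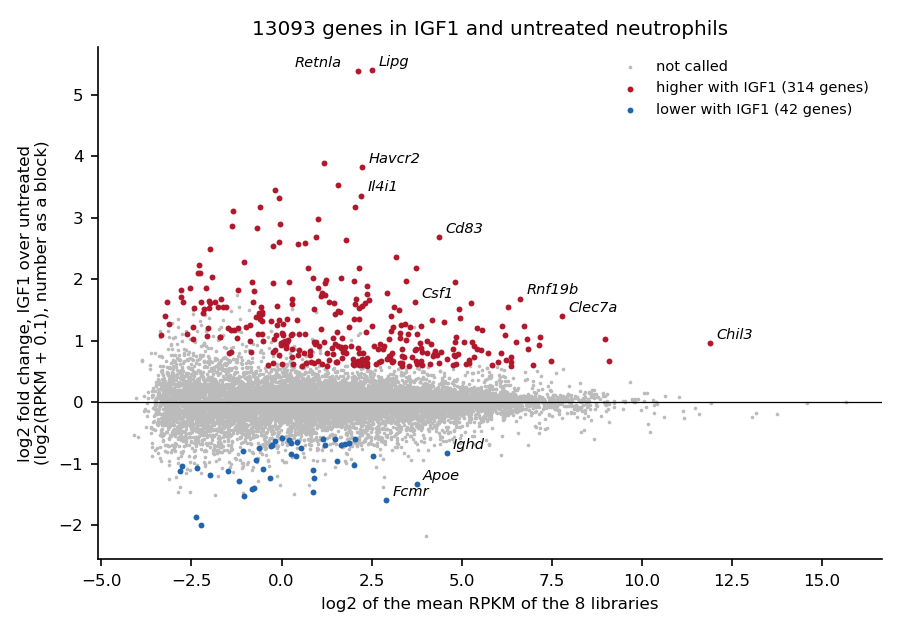
Log2 fold change of IGF1 over untreated neutrophils (vertical axis) against the log2 mean RPKM of the 8 libraries (horizontal axis) for the 13093 genes tested, with the 314 genes called higher in red, the 42 called lower in blue and the others in grey. Most called genes lie above 0, from rare transcripts to Chil3, one of the most abundant.

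Of the 19 pathway lists, that of alternative activation had the highest median change with IGF1. Of its 31 tested members, 21 rose and none fell (67.7% called, against 2.72% of all genes tested). The median log2 fold change of the list was 1.4, beside 0.02 for all genes tested. The list was drawn up with earlier results of these data known and holds, beside known targets of IL4 and STAT6, genes that the study named from these libraries, such as Car4, Slc28a3 and Fam19a3, so its count is a description. It joins secreted proteins, lectins, inhibitory receptors and enzymes. At the share of all genes, a list of 22 to 36 members would hold about 1 called gene.

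Among the secreted proteins, Retnla (resistin-like α) had 11.2, 8, 7.07 and 7.77 RPKM in IGF1 cells, against 0.153, 0.126, 0.2 and 0 RPKM in untreated cells. It was nearly absent without treatment and present in every IGF1 library, with a log2 fold change of 5.38 ± 0.28 (SE; adjusted p = 0.00087). Chil3, a chitinase-like lectin, was abundant already, with 4675 to 5315 RPKM in IGF1 cells and 2384 to 2831 RPKM in untreated cells. The IGF1 libraries of Chil3 all lay above the untreated ones. Lipg, the endothelial lipase, stood at 7.3 to 15.2 RPKM with IGF1 and 0.101 to 0.264 RPKM without. Outside the list, Il4i1, a secreted amino acid oxidase whose name comes from its induction by IL4, had 5.41, 11.8, 6.3 and 10.3 RPKM with IGF1, against 0.503, 1.1, 0.47 and 0.863 RPKM in untreated cells. Its log2 fold change was 3.36 ± 0.08 (adjusted p = 7.38e-05), and the numbers 9 and 11 were the higher ones in both groups.

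Of the 4 C-type lectins on the list, Mgl2, Clec7a and Clec10a rose and Mrc1 was not called. Mgl2, a galactose-type macrophage lectin, had 3.28, 1.07, 4.99 and 2.02 RPKM in IGF1 cells, against 0.414, 0.233, 0.381 and 0.304 RPKM in untreated cells (log2 fold change 2.58 ± 0.26, adjusted p = 0.0053). Its IGF1 level differed widely between numbers, yet the groups did not overlap. Clec7a, the β-glucan receptor Dectin-1, had 345, 309, 330 and 299 RPKM with IGF1, against 126, 116, 129 and 113 RPKM without, a narrow spread in both groups (log2 fold change 1.4 ± 0.05).

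Several members were rare transcripts that untreated cells almost lacked. Car4, a membrane-bound carbonic anhydrase, had 0.755, 0.68, 1.16 and 0.549 RPKM in IGF1 cells and 0 in all 4 untreated libraries. With 135 reads recovered for it in IGF1 libraries and a floor of 3 reads over the untreated group, Car4 was at least 49.7-fold higher with IGF1. Slc28a3, a nucleoside transporter, had 1.4, 0.777, 1.55 and 1.36 RPKM with IGF1, against 0.0695, 0.0524, 0.0355 and 0.0377 RPKM in untreated cells. Fam19a3, a secreted chemokine-like protein, gave 86 reads with IGF1 and 1 read without, a ratio of 95 with a 95% counting interval of 16.6 to 3794. Arg1 (arginase 1), the classical enzyme of this programme, was barely expressed at 0.127 to 0.292 RPKM with IGF1, from 26 reads, against 2 reads in all untreated libraries (ratio 14.4, interval 3.6 to 124.8). These intervals cover counting error only. The call of Arg1 was lost without any 1 of the 4 numbers (adjusted p = 0.0511 to 0.119), and that of Fam19a3 without number 6, 9 or 11 (0.0583 to 0.0812).

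The remaining members that rose, named after their values were seen, were Batf3, a transcription factor of dendritic cells (log2 fold change 2.23), the VEGF receptor Flt1 (1.54), the kinase Matk (1.47), the lectin Clec10a (1.44), the chitinase-like Chil4 (1.26), the adhesion protein Cdh1 (1.1) and Il1rn, the interleukin 1 receptor antagonist (1.1). The calls of Chil4 (adjusted p = 0.0578 to 0.116) and Clec10a (0.0532 to 0.103) were lost without any 1 of the 4 numbers, that of Matk without number 9 or 11 (0.106 and 0.0982), and that of Cdh1 without number 6, 9 or 10 (0.0566 to 0.141) and in the fit without the block (0.493). Of the 7 genes, Il1rn was the abundant one, with 85.1, 95.3, 128 and 91.3 RPKM in IGF1 cells, against 37.1, 51.3, 48.7 and 48.9 RPKM in untreated cells, with no overlap. The members that were not called included Mrc1, the mannose receptor, with 0.39 to 0.812 RPKM in IGF1 cells and 0.176 to 0.737 RPKM in untreated cells (adjusted p = 0.122). Ccl24, a chemokine for eosinophils, had 0.145 to 0.225 RPKM with IGF1, against 0 to 0.0705 RPKM in untreated cells, and missed the threshold at an adjusted p of 0.0547. Alox15, an arachidonate lipoxygenase, was abundant in both groups, at 53.3 to 85.4 RPKM with IGF1 and 55.9 to 83.4 RPKM without (adjusted p = 0.703). The plot of single libraries shows Havcr2, Il4i1, Cd83, Mgl2 and Clec7a in its upper rows.

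**Figure D2:**
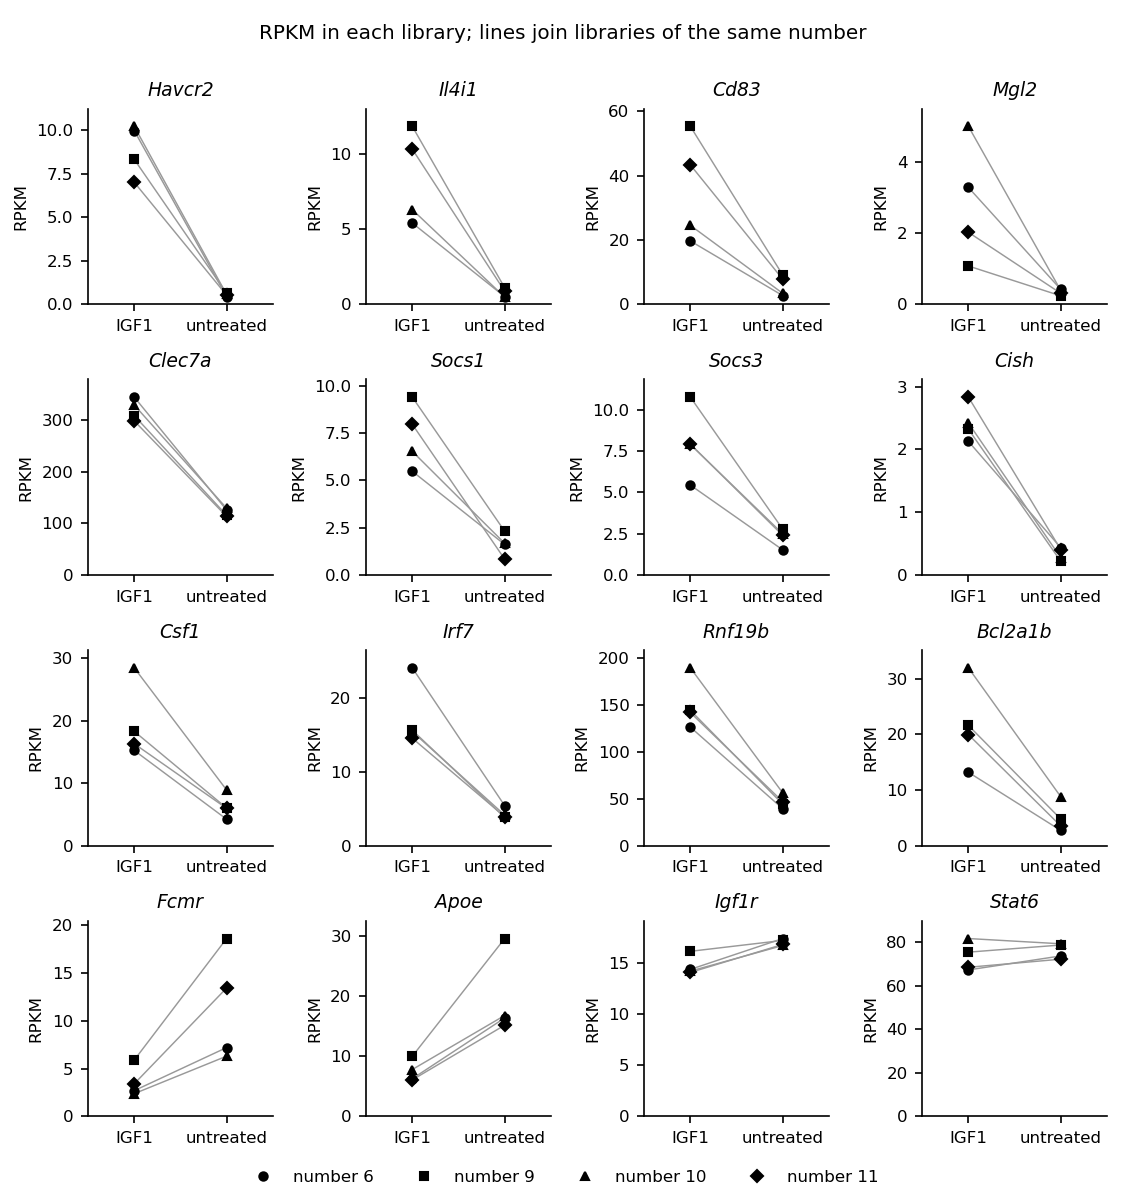
RPKM of 16 genes in each of the 4 IGF1 libraries (left) and the 4 untreated libraries (right), with lines that join the libraries of 1 number and symbols for the numbers 6, 9, 10 and 11. The 12 genes of the upper 3 rows are higher with IGF1 in every number, Fcmr and Apoe are lower in every number, and Igf1r and Stat6 were not called.

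STAT6 binds palindromes in which TTC and GAA stand 4 bases apart, while other STAT proteins favour a gap of 3 bases. RefSeq promoter windows of GRCm38.p6 (250 bases before to 50 after a start) were matched by symbol or synonym for 247 of the 314 genes that rose. A 4-base gap between TTC and GAA stood in a window of 27 of these (10.9%, Wilson 95% interval 7.6% to 15.4%), against 659 of 9819 genes tested (6.7%). For a 3-base gap the shares were 11.7% of genes that rose and 8.5% of all. Both forms read the same on either strand, and a gene counts once if any of its windows holds the form. A match is a description of letters and not of binding. Among genes that fell, 2 of 25 with a window held the 4-base form (8%, interval 2.2% to 25%), a share near that of genes that rose. Of the genes named here that rose, 8 held the 4-base form. Socs1, Cish, Arg1, Chil3, Havcr2 and Fcgr2b rose without it, and Il12a, which fell, held it. The 5 printed here were picked from the 8 that rose: Retnla (chr16:48842359-48842658, plus strand), Clec7a (chr6:129472730-129473029, minus strand), Lair1 (chr7:4063155-4063454, minus strand), Hk3 (chr13:55021336-55021635, minus strand) and Pdcd1lg2 (chr19:29410669-29410968, plus strand). Capitals mark the TTC and the GAA.
Retnla: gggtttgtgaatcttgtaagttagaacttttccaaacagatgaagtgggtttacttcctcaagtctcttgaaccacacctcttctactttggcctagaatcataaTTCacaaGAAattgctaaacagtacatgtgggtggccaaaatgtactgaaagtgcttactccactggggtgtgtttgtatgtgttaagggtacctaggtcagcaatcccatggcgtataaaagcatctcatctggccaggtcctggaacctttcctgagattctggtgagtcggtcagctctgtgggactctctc
Clec7a: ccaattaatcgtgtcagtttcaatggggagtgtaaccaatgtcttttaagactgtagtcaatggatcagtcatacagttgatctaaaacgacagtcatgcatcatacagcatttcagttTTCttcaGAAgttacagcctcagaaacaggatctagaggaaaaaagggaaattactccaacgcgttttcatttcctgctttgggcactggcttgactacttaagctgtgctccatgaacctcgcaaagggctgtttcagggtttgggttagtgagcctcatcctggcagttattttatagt
Lair1: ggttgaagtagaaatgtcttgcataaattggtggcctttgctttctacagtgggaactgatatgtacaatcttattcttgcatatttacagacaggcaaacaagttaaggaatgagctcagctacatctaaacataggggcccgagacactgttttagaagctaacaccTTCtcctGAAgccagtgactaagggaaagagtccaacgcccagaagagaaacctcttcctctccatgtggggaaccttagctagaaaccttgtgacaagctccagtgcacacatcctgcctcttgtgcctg
Hk3: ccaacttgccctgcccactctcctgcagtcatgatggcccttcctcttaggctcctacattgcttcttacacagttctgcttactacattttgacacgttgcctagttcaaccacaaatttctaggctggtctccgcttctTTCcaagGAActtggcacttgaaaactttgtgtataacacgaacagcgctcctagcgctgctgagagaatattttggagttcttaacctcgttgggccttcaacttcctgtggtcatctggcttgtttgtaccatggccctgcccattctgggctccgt
Pdcd1lg2: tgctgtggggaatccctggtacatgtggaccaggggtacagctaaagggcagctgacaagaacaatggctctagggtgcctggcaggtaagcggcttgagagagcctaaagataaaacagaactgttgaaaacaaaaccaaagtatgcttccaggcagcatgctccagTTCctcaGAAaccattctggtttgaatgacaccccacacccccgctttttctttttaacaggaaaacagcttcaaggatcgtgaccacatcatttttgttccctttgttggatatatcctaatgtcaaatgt

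Of the components of IGF1 and insulin signalling, a single one passed the test at the transcript level. Of 14 ligands, receptors and adaptors tested, Gab2 rose and 13 were not called (7.14% called, against 2.72% of all genes). Their median log2 fold change was -0.04. Igf1r, the receptor itself, had 14.4, 16.1, 14.2 and 14.1 RPKM in IGF1 cells, against 17.4, 17.2, 16.7 and 16.8 RPKM in untreated cells. The 4 IGF1 libraries of Igf1r all lay below the untreated ones, and the log2 fold change of -0.21 (95% interval -0.34 to -0.08) did not pass the test (adjusted p = 0.101). Insr, the insulin receptor, had 9.12 to 10.4 RPKM with IGF1 and 9.94 to 11.3 RPKM without (log2 fold change -0.09, interval -0.21 to 0.04). Gab2, a docking adaptor that recruits PI3K and the phosphatase SHP2, had 17.8, 17.4, 18.5 and 13.4 RPKM in IGF1 cells, against 9.45, 9.85, 9.05 and 8.4 RPKM in untreated cells (log2 fold change 0.85 ± 0.07, adjusted p = 0.00175).

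Of 36 genes of the PI3K, AKT, FOXO and mTOR pathway tested, none was called, a share near the 2.72% of all genes. Their log2 fold changes ran from -0.44 to 0.15 with a median near 0 (-0.003). Akt1, an AKT kinase that acts in growth and survival, had 76.5 to 91.7 RPKM with IGF1 and 74.9 to 79.9 RPKM without (log2 fold change 0.06, interval -0.07 to 0.2). For Akt2, which acts in insulin signalling, the log2 fold change was 0.07 (interval -0.06 to 0.21). Pik3ip1, a PI3K inhibitor, had 0.692 to 1.44 RPKM with IGF1 and 1.12 to 1.84 RPKM in untreated cells, at an adjusted p of 0.0772. Klf2, which FOXO factors are known to drive, had 40.5 to 57.6 RPKM with IGF1 and 56 to 68.5 RPKM without (adjusted p = 0.0688).

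The immediate early and feedback genes of the MAP kinases were mixed. Of 30 tested, 6 rose (Egr1, Egr2, Myc, Ier3, Jund and Atf3), none fell, and the median log2 fold change was 0.22. Egr2, a zinc finger factor that is also known from macrophages given IL4, had 1.07, 2.51, 1.84 and 2.18 RPKM in IGF1 cells, against 0.47, 0.597, 0.799 and 0.349 RPKM in untreated cells (log2 fold change 1.6 ± 0.25). Myc, which drives growth genes, had 2.65, 4.97, 3.46 and 4.94 RPKM with IGF1, against 1.01, 2.55, 1.36 and 2.36 RPKM without. In both genes the IGF1 libraries all lay above the untreated ones. Fos, the standard early target of ERK signalling, had 4.74 to 8.75 RPKM with IGF1 and 5.82 to 9.09 RPKM in untreated cells (adjusted p = 0.361), and Dusp6, a phosphatase that feeds back on ERK, had 13.4 to 22.2 RPKM with IGF1 and 17.2 to 21.8 RPKM without (adjusted p = 0.61). The call of Egr1 was lost without number 11 or 9 (adjusted p = 0.0749 and 0.0765), and that of Egr2 without number 6 or 9 (0.0531 and 0.133). In the fit without the block, 4 of the 6 calls were lost, those of Myc (adjusted p = 0.182), Ier3 (0.273), Egr1 (0.353) and Atf3 (0.629).

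The receptor chains and kinases of the IL4 route were present in both groups. Il4ra had 16.4, 24.5, 18.2 and 20.7 RPKM in IGF1 cells, against 13, 14, 12.7 and 13.1 RPKM in untreated cells, with no overlap. Its log2 fold change of 0.57 ± 0.08 (adjusted p = 0.016) lay just under the 1.5-fold limit, so that it was not called. Il2rg, the common γ chain, did not pass the test, at 12.7 to 17.7 RPKM with IGF1 and 13.7 to 18.5 RPKM without. Il4 itself was measured at 0.879 to 1.26 RPKM in IGF1 cells and 0.716 to 1.53 RPKM in untreated cells (log2 fold change -0.01, interval -0.51 to 0.49).

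Of 28 genes for JAK and STAT proteins and their feedback inhibitors tested, 5 rose and none fell, with a median of 0.11. Those that rose were Jak2 and 4 feedback or target genes. Cish, an SH2 protein that damps cytokine receptors, had 2.13, 2.32, 2.42 and 2.84 RPKM in IGF1 cells, against 0.434, 0.217, 0.274 and 0.403 RPKM in untreated cells (log2 fold change 2.58 ± 0.17, adjusted p = 0.000753). Socs1, which blocks JAK kinases, had 5.48, 9.4, 6.53 and 7.96 RPKM with IGF1, against 1.61, 2.31, 1.67 and 0.834 RPKM without. Socs3, a feedback inhibitor best known for STAT3 signals, had 5.44, 10.8, 7.9 and 7.92 RPKM with IGF1, against 1.52, 2.77, 2.49 and 2.39 RPKM in untreated cells (log2 fold change 1.75 ± 0.07). The groups of all 3 genes lay apart in every library. Jak2 had 53.5 to 63.1 RPKM in IGF1 cells and 28.2 to 36.8 RPKM in untreated cells (log2 fold change 0.84 ± 0.06). Jak1, Tyk2 and Stat6 had log2 fold changes between -0.1 and -0.06 and were not called, and Jak3 had 0.681 to 0.79 RPKM with IGF1 and 0.41 to 0.563 RPKM without, at an adjusted p of 0.132. The call of Socs1 was lost without number 6 or 9 (adjusted p = 0.0632 and 0.115), and that of Pim3, a survival kinase, without number 6, 9 or 11 (0.0615 to 0.137).

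**Figure D3:**
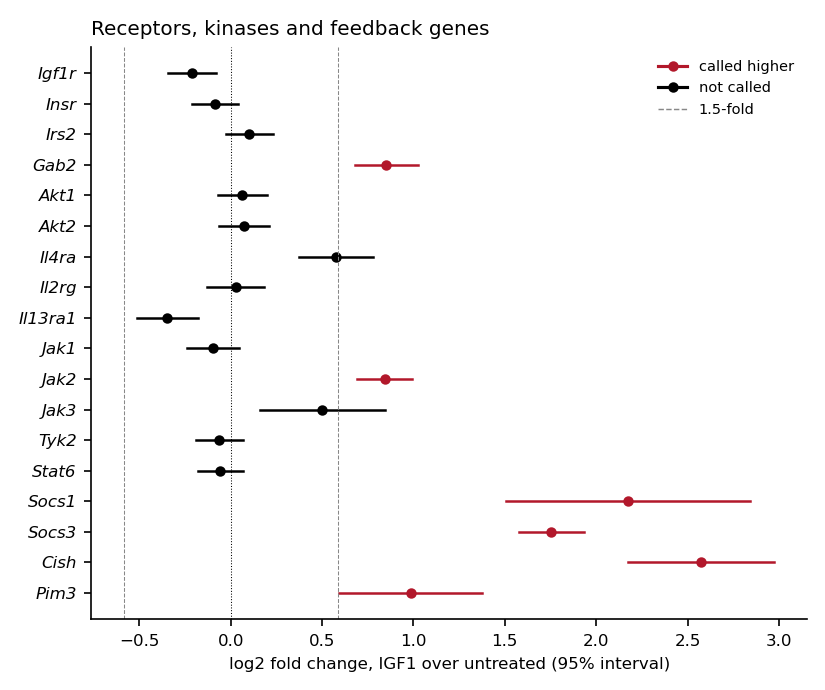
Log2 fold change of IGF1 over untreated with its 95% interval for receptors, adaptors, kinases, Stat6 and feedback genes, where red marks genes called higher and dashed lines mark a 1.5-fold change. Gab2, Jak2, Socs1, Socs3, Cish and Pim3 are called, while Igf1r, Insr, Akt1, Akt2 and Stat6 lie between the dashed lines.

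Of 34 inflammatory genes of the NF-κB and Toll-like receptor routes tested, 4 rose and 1 fell (14.7% called, against 2.72% of all genes), and the median log2 fold change was 0.07. Csf1, the macrophage colony-stimulating factor, had 15.3, 18.3, 28.5 and 16.3 RPKM in IGF1 cells, against 4.23, 6.03, 8.92 and 5.98 RPKM in untreated cells (log2 fold change 1.63 ± 0.07, adjusted p = 0.000237). The other 3 were Ccl4, a chemokine for monocytes and T cells, with a log2 fold change of 0.76, the whey acidic protein family gene Wfdc17 with 1.31, and Cd40, a costimulatory receptor, with 0.8. Il12a, a subunit of interleukin 12, was the member that fell, with 1.77, 2.69, 1.54 and 1.08 RPKM with IGF1, against 3.17, 3.47, 2.39 and 1.7 RPKM without. The Il12a groups overlapped between numbers, since the IGF1 library of number 9 lay above 2 untreated ones, and each IGF1 library lay below the untreated one of its own number. Tnf, a main inflammatory cytokine, had 23.9, 28.4, 69.8 and 46.9 RPKM with IGF1, against 30.9, 35.9, 80 and 56 RPKM in untreated cells. It was lower in 4 of 4 numbers, with a log2 fold change of -0.29 ± 0.05 that lay under the 1.5-fold limit (adjusted p = 0.0351). Il1b, the interleukin 1β gene, also lay under that limit at -0.44 (adjusted p = 0.0216). Nos2, the inducible nitric oxide synthase, had 0.011 to 0.0425 RPKM with IGF1 and 0 to 0.0181 RPKM without, and was too rare to be tested. The call of Il12a was lost without number 6, 9 or 11 (adjusted p = 0.0611 to 0.118), and that of Cd40 without number 9 or 11 (0.0595 and 0.0583). In the fit without the block only Csf1 was called, and the calls of Ccl4 (adjusted p = 0.557), Wfdc17 (0.468), Cd40 (0.415) and Il12a (0.536) were lost.

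Among 26 interferon stimulated genes tested, 3 rose (Irf7, Ifi47 and Gbp2) and none fell, with a median of 0.07. Irf7, a transcription factor of the type I interferon response, had 24.2, 15.7, 15.5 and 14.6 RPKM in IGF1 cells, against 5.44, 3.83, 4.15 and 3.95 RPKM in untreated cells (log2 fold change 1.97 ± 0.07, adjusted p = 0.000108). Number 6 was the highest in both groups, and the groups did not overlap. Isg15 and Rsad2, which type I interferons induce strongly, had log2 fold changes of 0.11 and -0.34 and were not called. Tgtp1, a GTPase that IFNγ induces, had 2.22, 4.9, 2.35 and 4.39 RPKM with IGF1, against 0.484, 0.504, 0.187 and 0.622 RPKM without. The call of Ifi47 was lost without number 9, 10 or 11 (adjusted p = 0.0553 to 0.139). That of Gbp2 was lost in the fit without the block (0.0781) and in the limma fit of all 24 libraries (0.319).

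Some inhibitory receptors and their ligands rose. Of 22 tested, 6 rose, none fell, and the median was 0.04. Havcr2 (TIM-3), an inhibitory receptor of T cells and myeloid cells, had 9.97, 8.32, 10.2 and 7 RPKM in IGF1 cells, against 0.436, 0.621, 0.558 and 0.514 RPKM in untreated cells (log2 fold change 3.82 ± 0.14, adjusted p = 0.00012). Lair1, a receptor for collagens that signals through inhibitory motifs, had 9.71, 7.24, 9.61 and 5.95 RPKM with IGF1, against 2.34, 1.91, 2.72 and 1.55 RPKM without (log2 fold change 1.88 ± 0.07). Pdcd1lg2 (PD-L2) stood at 0.611 to 1.18 RPKM with IGF1 and 0.166 to 0.48 RPKM without. For these genes every IGF1 library lay above every untreated one. The other PD-1 ligand, Cd274 (PD-L1), had 4.03, 5.23, 9.47 and 6.83 RPKM in IGF1 cells, against 2.58, 2.99, 6.21 and 3.73 RPKM in untreated cells, a smaller change with overlap between numbers (log2 fold change 0.72 ± 0.07). Siglece and Cd300lf, both inhibitory receptors of myeloid cells, had log2 fold changes of 0.74 and 0.68. Vsir (VISTA), another inhibitory receptor, had 131 to 147 RPKM with IGF1 and 124 to 143 RPKM without (log2 fold change 0.05, adjusted p = 0.692). The calls of Cd274 (adjusted p = 0.488) and Siglece (0.131) were lost in the fit without the block.

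Several genes of the BCL2 family rose. Of 27 apoptosis and survival genes tested, 6 rose, none fell, and the median was 0.09. Bcl2a1a, Bcl2a1b and Bcl2a1d, copies of the anti-apoptotic A1 gene on chromosome 9, had log2 fold changes of 3.54 ± 0.18, 2.18 ± 0.1 and 1.62 ± 0.22. These copies are so alike that their reads may be split between them, so their separate values are uncertain. Bcl2a1b, the most abundant of them, had 13.2, 21.6, 32 and 20 RPKM in IGF1 cells, against 2.74, 4.78, 8.8 and 3.53 RPKM in untreated cells. Bcl2 itself had 1.25, 1.78, 0.992 and 1.61 RPKM with IGF1, against 0.324, 0.628, 0.462 and 0.583 RPKM without. Genes with the opposite role rose too, since Bcl2l11 (BIM), a death-promoting member, had a log2 fold change of 0.86 ± 0.06 and the caspase Casp6 had 1.05 ± 0.19. Mcl1, on which neutrophil survival depends, had 217 to 311 RPKM with IGF1 and 219 to 249 RPKM without (adjusted p = 0.41). The call of Bcl2a1d was lost without number 9 or 11 (adjusted p = 0.0707 and 0.138), and that of Casp6 without number 6, 9 or 11 (0.0916 to 0.197). In the fit without the block the calls of Bcl2a1d (0.139) and Bcl2l11 (0.095) were lost.

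Among the effector genes of neutrophils, none of 24 granule protein genes and none of 23 NADPH oxidase and NET genes tested was called, a share near the 2.72% of all genes. Their medians were -0.09 and -0.05. Cybb, the catalytic chain of the oxidase, had a log2 fold change of -0.28 (adjusted p = 0.0289), and Padi4, the enzyme that citrullinates histones in NETs, had -0.2 (adjusted p = 0.173). Of 22 phagocytic, Fc and C-type lectin receptors tested, Clec7a, Fcgr2b and Siglece rose and none fell. Fcgr2b, the inhibitory Fc receptor for IgG, had 54.6, 54.3, 65.9 and 55.2 RPKM in IGF1 cells, against 18.3, 17.8, 18.6 and 19.7 RPKM in untreated cells (log2 fold change 1.62 ± 0.07). Fcgr3, an activating Fc receptor, had a log2 fold change of 0.01 (adjusted p = 0.964).

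Of 26 chemotaxis, cytokine and adhesion receptors tested, Cxcr2, Il1rap and Pecam1 rose. Cxcr2, the main receptor for neutrophil chemokines, had 630, 605, 770 and 639 RPKM in IGF1 cells, against 411, 402, 422 and 430 RPKM in untreated cells (log2 fold change 0.66 ± 0.07). A related chemokine receptor outside the list, Cxcr1, had 9.02, 3.47, 7.46 and 4.19 RPKM with IGF1, against 1.35, 0.479, 0.884 and 0.739 RPKM without, the larger change at a far lower level (log2 fold change 2.64 ± 0.11). Il1rap, the shared coreceptor of the interleukin 1 family, and Il1rl1, the receptor for interleukin 33, had log2 fold changes of 1.56 ± 0.11 and 1.63 ± 0.08, and the groups of all these genes lay apart. Pecam1, an adhesion molecule of leukocytes and endothelium, rose by 1.24 on the log2 scale, a call that was lost without number 6, 9 or 11 (adjusted p = 0.0588 to 0.155). Cxcr4, which holds neutrophils in the marrow, had 0.08 (adjusted p = 0.592).

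Of 28 genes of glycolysis, glycogen and the pentose phosphate pathway tested, Hk3 alone passed, a hexokinase of myeloid cells (3.57%, near the 2.72% of all genes). Hk3 had 211, 177, 209 and 186 RPKM with IGF1, against 107, 92.1, 88.3 and 88.2 RPKM in untreated cells (log2 fold change 1.06 ± 0.06). Hk2, the hexokinase that insulin and IGF1 are known to raise in other tissues, had 21.9 to 25 RPKM with IGF1 and 20.9 to 26.1 RPKM without (adjusted p = 0.816). Of 35 lipid genes tested, Lipg, Pparg and Fabp5 rose and Apoe and Abca1 fell (14.3%), and the calls of Fabp5 (adjusted p = 0.234) and Abca1 (0.0779) were lost in the fit without the block. Pparg, a nuclear receptor for fatty acid ligands, was rare, at 0.423 to 0.708 RPKM in IGF1 cells and 0.0309 to 0.165 RPKM in untreated cells, and its call was lost without number 6 or 11 (adjusted p = 0.0659 and 0.0771). Abca1, the cholesterol exporter, had 2.22, 3.56, 2.08 and 2.64 RPKM with IGF1, against 3.56, 7.16, 5.32 and 5.78 RPKM without (log2 fold change -1.02 ± 0.11). Apoe, a lipid carrier, had 6.26, 9.99, 7.79 and 6.07 RPKM with IGF1, against 16.4, 29.6, 16.8 and 15.2 RPKM without. The sterol synthesis gene Sqle had a log2 fold change of -0.12 and was not called.

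The growth list had a median above that of all genes. Of 22 ribosome biogenesis and growth genes tested, 4 rose (Myc, Srm, Mybbp1a and Gnl3), none fell, and the median of 0.38 was the second highest of the 19 pathway lists. Mybbp1a, a nucleolar protein, had 4.25, 6.96, 4.88 and 6.48 RPKM in IGF1 cells, against 2.86, 4.32, 2.91 and 4.25 RPKM in untreated cells, with a log2 fold change of 0.64 ± 0.06 and overlap between numbers. Of 28 genes of the ATF4, unfolded protein and heat shock responses tested, Chac1, Slc7a5 and Xbp1 rose. Chac1, a glutathione-degrading target of ATF4, had 8.03, 11.3, 11.9 and 11.3 RPKM with IGF1, against 3.76, 5.62, 5.54 and 5.65 RPKM without (log2 fold change 1.03 ± 0.06), and number 6 was the lowest in both groups. The calls of Srm (adjusted p = 0.0876 and 0.0888 without number 6 or 9) and Gnl3 (0.0876 to 0.108 without number 6, 9 or 11) were lost. In the fit without the block all 4 calls of the growth list were lost, with adjusted p of 0.182 for Myc, 0.159 for Srm, 0.239 for Mybbp1a and 0.433 for Gnl3, as was that of Slc7a5 (0.18). Of 26 transcription factors of granulocytes tested, Egr1, Bhlhe40 and Runx1 rose and Id3 fell, with a median of 0.07, and only Runx1 was called in the fit without the block (0.353 for Egr1, 0.147 for Bhlhe40 and 0.082 for Id3). Runx1, a regulator of blood cell development, had 6.12, 5.83, 6.03 and 5.22 RPKM with IGF1, against 3.41, 3.62, 3.52 and 3.54 RPKM without, and the groups did not overlap.

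**Figure D4:**
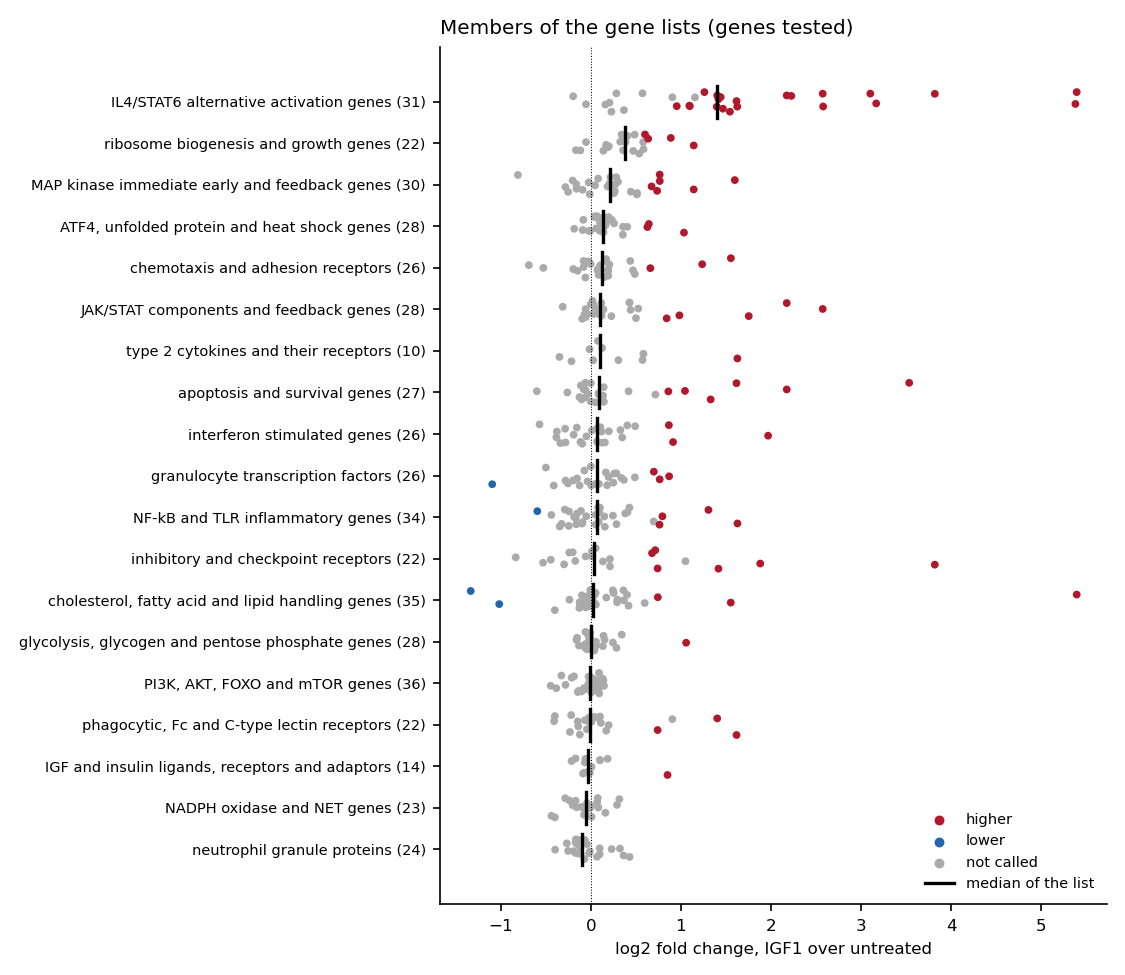
Log2 fold changes of IGF1 over untreated for the tested members of the 19 pathway lists, 1 dot per gene (red higher, blue lower, grey not called) and a bar for the median, with the number of genes tested in brackets. The alternative activation genes have the highest median (1.4). The PI3K list and both neutrophil effector lists hold no called gene, where the 2.72% called over all genes would give about 1 a list.

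Other leading rises lay outside the pathway lists. Cd83, a surface protein of activated B cells and dendritic cells, had 19.7, 55.4, 24.5 and 43.4 RPKM in IGF1 cells, against 2.66, 9.08, 3.37 and 7.76 RPKM in untreated cells (log2 fold change 2.68 ± 0.08, adjusted p = 7.38e-05). Serpina3g, an intracellular protease inhibitor, had 6.64, 9.14, 6.74 and 7.27 RPKM with IGF1, against 0.802, 0.857, 0.683 and 0.604 RPKM without. Both genes rose in every number, Cd83 to its highest level in the numbers 9 and 11. Rnf19b, a ubiquitin ligase first known from natural killer cells, had 126, 144, 190 and 142 RPKM with IGF1, against 39.4, 44.2, 56.2 and 46.8 RPKM without (log2 fold change 1.68 ± 0.05). Tmem123, a membrane glycoprotein, had 89.3 to 144 RPKM with IGF1 and 30.6 to 48.1 RPKM without. The long noncoding RNAs Gm12589 and 1110002J07Rik had log2 fold changes of 3.89 ± 0.21 and 3.45 ± 0.2, and Pkib, an inhibitor of protein kinase A, had 3.31 ± 0.27. Also among the 20 largest rises were Pxt1 (2.97 ± 0.2), AA415398 (2.89 ± 0.18), B3gnt7 (2.53 ± 0.22), the T cell receptor γ constant segment Tcrg-C2 (2.61 ± 0.21) and the antisense transcript Gm16341 (2.83 ± 0.5). The call of Gm16341 was lost without number 6 or 11 (adjusted p = 0.195 and 0.175) and in the fit without the block (0.114), and it rests on 40 reads with IGF1 and 2 without.

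The 42 genes that fell held none of the 14 B lineage or the 11 T and NK cell markers tested. With 0.321% of all genes lower, so few markers would be likely to hold none. The 12 largest falls among genes of at least 1 RPKM in untreated cells included Apoe and Abca1, given above. Fcmr, the Fc receptor for IgM of B cells, had 2.69, 5.89, 2.38 and 3.41 RPKM in IGF1 cells, against 7.2, 18.6, 6.3 and 13.4 RPKM in untreated cells (log2 fold change -1.59 ± 0.11, adjusted p = 0.000875). Rasgrp3, an activator of RAS in B cells, had 0.632 to 1.2 RPKM with IGF1 and 1.69 to 4.11 RPKM without. Ighd, the heavy chain of IgD, had 8.78, 29.1, 10.3 and 20.5 RPKM with IGF1, against 15.5, 53.4, 18.7 and 34.9 RPKM without. The Ighd groups overlapped because the numbers 9 and 11 were higher in both, while each number on its own was lower with IGF1. Klrd1 (CD94), a receptor of natural killer cells, fell by 1.24, Tcf7 (TCF1), a factor of T cells, by 0.88, and Id3, a factor of lymphocyte development, by 1.09 on the log2 scale. Ms4a4c fell by 0.95 and Ephx1, an epoxide hydrolase, by 0.88. The calls of Trbv12-2 (adjusted p = 0.0647 to 0.166 without number 6, 10 or 11), the pseudogene Gm4832 (0.0548 to 0.105 without number 6, 9 or 11) and Ephx1 (0.0652 to 0.0809 without number 6, 9 or 11) were lost, and these 3 (0.0779, 0.687 and 0.308) and those of Fcmr, Rasgrp3, Id3, Abca1, Tcf7 and Ighd (0.0627 to 0.642) were lost in the fit without the block.

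Markers of the other marrow cells were measured beside these changes. None of the 14 B lineage markers was called, against 2.72% of all genes. Their sum was 563, 716, 534 and 705 RPKM with IGF1, against 582, 776, 482 and 721 RPKM in untreated cells. It was higher in the numbers 9 and 11 in both groups, as were Il4i1, Cd83, Fcmr and Ighd, and the part of B cells in the levels of these genes was not tested. None of the erythroid, eosinophil, basophil and mast cell, megakaryocyte or proliferation markers was called, a share near the 2.72% of all genes. The erythroid sum ran from 694 to 5332 RPKM with IGF1 and from 669 to 6207 RPKM without, with the same order of numbers in both groups. The eosinophil sum was 1743 to 2385 RPKM with IGF1 and 2116 to 2380 RPKM without, and the basophil and mast cell sum 11 to 40.6 RPKM with IGF1 and 12.7 to 43 RPKM without. Xcr1, Prf1 and Treml1, markers of dendritic, cytotoxic and platelet lineages, were too rare to be tested.

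Of 13 monocyte and macrophage markers tested, Adgre1 (F4/80) rose, Cx3cr1 and F13a1 fell, and 10 were not called (23.1% called, against 2.72% of all genes). Adgre1 had 64.6, 46.1, 91.9 and 56.6 RPKM in IGF1 cells, against 24.7, 19.9, 44.4 and 26.9 RPKM in untreated cells (log2 fold change 1.18 ± 0.07). The complement genes C1qa, C1qb and C1qc, which mark tissue macrophages, averaged under 1 RPKM in both groups. Of 11 T and NK cell markers tested, Cd8a and Gzma rose and 9 were not called (18.2% called, against 2.72% of all genes). The median log2 fold change of the list was -0.21, and 7 of the 9 lay below 0. Cd8a had 3.42, 7.27, 3.74 and 6.14 RPKM with IGF1, against 1.12, 1.29, 0.67 and 1.66 RPKM without (log2 fold change 2.02 ± 0.16), while Cd3e, the defining chain of T cells, had 1.35 to 2.1 RPKM with IGF1 and 1.28 to 2.15 RPKM without (adjusted p = 0.719). Of 9 dendritic cell markers, the MHC class II chain H2-Ab1 rose by 0.68 on the log2 scale (11.1% called). Lists this short give only coarse shares. The summed T and NK markers were 22.4 to 28.8 RPKM with IGF1 and 18.8 to 23.7 RPKM without, the summed monocyte markers 564 to 723 and 599 to 711 RPKM, and the summed dendritic markers 33.9 to 99.3 and 26.6 to 76.5 RPKM, each with IGF1 first. The calls of Cx3cr1 (adjusted p = 0.0632 without number 6 or 11), F13a1 (0.0755 to 0.0823 without number 6, 9 or 11) and Gzma (0.0631 and 0.0632 without number 9 or 11) were lost. In the fit without the block those of Adgre1 (0.119), Cx3cr1 (0.0877), F13a1 (0.439) and H2-Ab1 (0.664) were lost.

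To set the response beside those to related ligands, IGF1 was compared directly with insulin and with IL4. Against insulin at 10 ng/mL, IGF1 changed 328 of 13059 genes (2.51%), and against insulin at 100 ng/mL 319 of 13124 (2.43%). The doses in mass are equal only for the lower insulin dose. Of the 314 genes higher with IGF1 than in untreated cells, 250 of 313 that could be tested were also higher than with 10 ng/mL insulin (2.17% of all genes), with a median log2 difference of 0.98, and 249 of 314 were higher than with 100 ng/mL insulin (2.1% of all genes), with a median of 1.03. These comparisons share the IGF1 libraries with the first one, so the counts are not independent of it. Socs3 averaged 8.01 ± 2.18 RPKM with IGF1, 2.37 ± 0.32 RPKM with 10 ng/mL and 2.33 ± 0.54 RPKM with 100 ng/mL insulin (SD, n = 4 each), and the IGF1 difference passed the limma test at both doses (adjusted p = 0.000373 and 0.000718). Cxcr1 averaged 6.04 ± 2.64 RPKM with IGF1, against 0.917 ± 0.405 and 0.894 ± 0.215 RPKM with the lower and the higher insulin dose. Of the 42 genes that fell, 22 of 40 were lower than with 10 ng/mL insulin (0.345% of all genes) and 20 of 40 lower than with 100 ng/mL insulin (0.328% of all genes).

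Gbp2 and Tgtp1 were called against the lower insulin dose and not against the higher, and the difference between the doses was not tested. Gbp2, a guanylate binding protein, had 9.2, 6.92, 8.6 and 11.6 RPKM with IGF1, against 5.63, 2.32, 5.12 and 41.8 RPKM with insulin at 100 ng/mL. Tgtp1 showed the same library, with 2.22, 4.9, 2.35 and 4.39 RPKM with IGF1, against 0.408, 0.706, 0.516 and 4.52 RPKM with insulin at 100 ng/mL. The insulin library of number 11 lay far above the other 3 for both genes. The adjusted p of Tgtp1 was 0.193 against that dose and 0.00192 against the lower dose.

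Between IGF1 and IL4, 1 of 13080 genes was called (0.00765%), and 458 had an unadjusted p under 0.05. The called gene was the predicted gene Gm9797, chosen once its values were known, with 0, 0.182, 0 and 0 RPKM with IGF1, against 0.576, 1.91, 0.508 and 0.447 RPKM with IL4. It was not called in the fit without the block, nor without any 1 of the 4 numbers. None of the 314 genes that rose with IGF1 was called against IL4, and the median log2 difference was 0.01. The 95% interval was narrower than 1.5-fold in both directions for 293 of them and narrower than 2-fold for 308. The share of all genes tested with intervals this narrow is not given here. This comparison also shares the IGF1 libraries that chose the 314 genes. Havcr2 averaged 8.88 ± 1.51 RPKM with IGF1 and 9.36 ± 1.51 RPKM with IL4, a log2 difference of -0.08 (interval -0.21 to 0.06). Socs1 averaged 7.34 ± 1.71 RPKM with IGF1 and 7.02 ± 1.83 RPKM with IL4, a log2 difference of 0.07 (interval -0.06 to 0.2). Of the 42 genes that fell, 40 could be tested against IL4. None was called, and the interval was narrower than 1.5-fold for 25 and narrower than 2-fold for 34, again without the share of all genes. Fcmr averaged 3.59 ± 1.59 RPKM with IGF1 and 3.74 ± 1.86 RPKM with IL4. The doses of IGF1 and IL4 differ, and no other dose of either was measured.

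**Figure D5:**
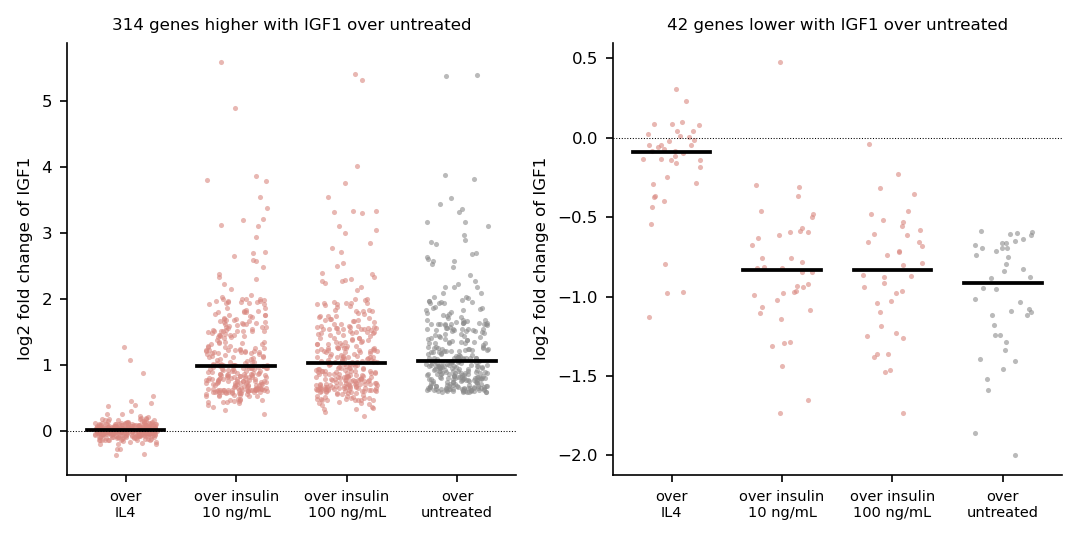
Log2 fold change of IGF1 over IL4, over insulin at 10 and 100 ng/mL and over untreated cells, for the 314 genes higher (left) and the 42 genes lower (right) with IGF1 than in untreated cells; dots are genes and bars are medians. The median of the 314 genes was 0.01 over IL4, 0.98 and 1.03 over insulin and 1.06 over untreated cells, the contrast that chose them.

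Some of these genes stood at other levels after LPS with IFNγ. Socs1 averaged 64.9 ± 9.77 RPKM, Serpina3g 65.8 ± 6.87 RPKM and Irf7 74.3 ± 7.51 RPKM with LPS/IFNγ (SD, n = 4), above their IGF1 means of 7.34, 7.45 and 17.5 RPKM. Havcr2 averaged 0.294 ± 0.107 RPKM and Retnla 0.133 ± 0.139 RPKM with LPS/IFNγ, beside 8.88 and 8.5 RPKM with IGF1. These values stand side by side with no test between them.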

How the data were processed

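RNA was sequenced from marrow neutrophils of 6 groups with 4 libraries each, and the 8 libraries of IGF1 and untreated cells carry the main comparison. According to the submitters' processing notes, reads were demultiplexed with bcl2fastq 2.17.1.4 and the build was mm10 (GRCm38). Per the study's methods, mapping and counting were done in CLC Genomics Workbench, and the deposited RPKM values are reads per gene divided by gene length and mapped reads, as made by the authors. No source states the strand setting, so overlapping and antisense genes may share reads, as may near-identical copies.

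Here log2(RPKM + 0.1) was computed from the deposited values for genes of at least 0.1 RPKM in 4 of the 8 libraries and fitted with limma 3.58.1 (R 4.3.3, trend and robust settings), with the number as a block, Benjamini-Hochberg adjustment over all genes tested, and a call at an adjusted p under 0.05 with at least 1.5-fold. Errors are SE of the fit or SD where stated. Whether the numbers pair libraries was checked on deviations from the group means: same-number correlations were 0.233 to 0.519 and different-number ones -0.337 to 0.172, so the numbers were used as pairs. Read counts were recovered from the RPKM steps with a tolerance of 0.0001 reads, at the annotated length for 69.9% of 21058 genes above 0 and at a fitted length for the others. These counts served an alternative fit with voom, which called 428 genes. Intervals on reads are exact and cover counting error only.

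Genes were named by a rule: the 20 largest rises and 12 largest falls that reached 1 RPKM on average in either group and kept their direction in all 4 numbers, the 10 smallest adjusted p-values, up to 6 called members of each list, genes the study names (some items are not reported here), and uncalled members as context. The comparison, the lists and this rule were chosen with earlier results of these data known. The alternatives were other pseudocounts, filters, thresholds and scalings, no block, all 24 libraries in 1 fit, voom, and leaving out each number. Voom without the block was added after seeing the data. The fits were tested on a single simulated data set, with 100 genes changed 2-fold and 100 changed 4-fold. The spread between its libraries was chosen, and genes of few reads were left unchanged. With the block, 10.3% of the calls were false, above the 0.05 set for the adjusted p. Most of these false calls were among genes of few reads. Without the block, 4.1% of the calls were false, and fewer of the 2-fold changes were found. Both shares depend on the chosen settings and on a single draw, so they are not error rates of the real fits.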

Additional observations from a re-analysis of the deposited data

Results flagged for a closer look

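In 13 of 200 groups of 4 libraries, 1 library lay far from the other 3. Chance alone gives about 1 in 20 such groups. All values are RPKM.

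Number 6 was the odd library most often. With IGF1, Irf7 had 24.2 in number 6, against 14.6 to 15.7 in the others. Egr1 was low in number 6 of both groups, with 1.16 against 2.49 to 2.68 in IGF1 cells, and 0.784 against 1.36 to 1.42 in untreated cells. Chac1 was low there too, with 8.03 against 11.3 to 11.9 in IGF1 cells, and 3.76 against 5.54 to 5.65 in untreated cells. In untreated cells of number 6, Bhlhe40, a transcription factor, had 6.16 against 10.2 to 10.7, and Wfdc17 had 29.1 against 5.97 to 9.82.

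In number 10 with IGF1, Fcgr2b had 65.9 against 54.3 to 55.2, Gzma had 4.1 against 3.05 to 3.19, and Akt1 had 91.7 against 76.5 to 78.3. In number 9, Igf1r had 16.1 with IGF1 against 14.1 to 14.4 in the other IGF1 libraries. The untreated library of number 9 had 29.6 for Apoe against 15.2 to 16.8, and 0.582 for Pxt1 against 0.299 to 0.338.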

How the results depend on the processing

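For IGF1 against untreated cells, 356 genes were called in the fit described above. The count was 213 without the replicate block (208 shared), 212 with a pseudocount of 1, 188 at 2-fold, 625 with no fold limit, 631 on unadjusted p, and 196 with voom and no block. Without 1 number it ran from 235 to 374. Against insulin at 10 ng/mL (328 genes) the same settings gave 187, 201, 172, 532, 601 and 184, and 192 to 369 without 1 number. Against insulin at 100 ng/mL (319 genes) they gave 200, 200, 186, 452, 715 and 197, with 482 when all 24 libraries shared 1 fit and 158 to 383 without 1 number. Against IL4 (1 gene) the count was 0 without the block, with a pseudocount of 1 or 0.01, with no filter, with a filter of 1 RPKM, with all 24 libraries and with voom and no block, 139 on unadjusted p with 1.5-fold, and 0 to 1 without 1 number, where the 1 was another gene. The causes were not tested.

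Of the 100 named genes, 90 were called, and 42 of these kept their call under every fit and left-out number that was run, while 22 lost it without at least 1 number and 33 in the fit without the block. No named gene changed direction in these settings. Precision was limited for rare transcripts: Jak3, at 0.41 to 0.79 RPKM over both groups, had an interval of 0.16 to 0.84 on the log2 scale.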

Other observations

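Gene families outside the lists were looked at after their values were seen, so their counts are descriptions. Of all genes tested, 2.72% were called, with 2.4% higher and 0.321% lower. Of 12 MHC class II and loading genes tested, 6 were higher with IGF1 and none lower, with a median log2 fold change of 0.54. The 6 that were not called ran from -0.43 (H2-Eb2) to 0.4 (H2-Aa), with H2-Ob and H2-Oa also below 0. The call of H2-Ab1 was lost in the fit without the block, as given above. H2-DMa, a chain of the peptide exchange factor, had 3.81, 9.46, 4.12 and 7.61 RPKM with IGF1, against 1.39, 2.5, 1.51 and 2.2 RPKM in untreated cells (log2 fold change 1.6 ± 0.11). Ifi30, the lysosomal thiol reductase that prepares antigens, had 35.2, 56.1, 31 and 57.8 RPKM with IGF1, against 12.9, 22.2, 12.7 and 21.2 RPKM without. The numbers 9 and 11 were the higher ones in both groups, as for the B lineage and dendritic cell sums, and the part of those cells was not tested.

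Of 20 C-type lectin genes, 6 were higher and 1 lower. Clec4b2 had 18.5, 15.8, 12.3 and 14.1 RPKM with IGF1, against 2.49, 3.71, 3.16 and 2.2 RPKM without (log2 fold change 2.36 ± 0.18), and Clec4a3 had a log2 fold change of 1.66 ± 0.07. All 3 Sirpb1 genes were higher, with a median of 0.87, though such close copies may share reads. Complement C3 had 670, 567, 843 and 609 RPKM with IGF1, against 346, 293, 368 and 309 RPKM without, and the coagulation factor F10 had a log2 fold change of 1.39 ± 0.09. The groups of Clec4b2 and C3 did not overlap. Of 20 cytosolic tRNA synthetases, Iars, Lars and Tars were higher, with a median of 0.32 over the family. Of 46 T cell receptor segments, 1 was higher and 3 were lower.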
